A study of Arabidopsis thaliana with 11 samples.

Results

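Aquaporins are membrane channels that let water, and in some cases small neutral solutes such as urea, boric acid, ammonia or hydrogen peroxide, cross a membrane along a gradient. The 35 aquaporin genes of Arabidopsis thaliana were taken as a family by their locus names: 13 plasma membrane intrinsic proteins (PIPs), 10 tonoplast intrinsic proteins (TIPs), 9 NOD26-like intrinsic proteins (NIPs) and 3 small basic intrinsic proteins (SIPs). All 35 have a probe on the array, among 34290 genes with a probe. That count holds 25410 loci, and the rest are probe target names that matched no locus, also called genes here. A member was tested where its probe stood well above background on 3 or more of the 11 arrays, which held for 27 members among 23458 genes: 13 PIPs, 7 TIPs, 4 NIPs and 3 SIPs. The other 8 members were too dim to test. Of the 23458 genes tested, 19321 were loci. Shares over all genes below are of all 23458, so they include target names without a locus.

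The samples were guard-cell-enriched material of Col-0 plants, grown on soil in pots. Guard cells are the pair of cells around each stoma, whose turgor sets how wide it opens. In the 3x salt group (4 arrays) the pots were soaked in 75 mM NaCl on days 1 and 2, in 150 mM NaCl on days 7 and 8 and in 200 mM NaCl on days 13 and 14, for 2 h each time. In the 1x salt group (3 arrays) they were soaked for 2 h in 200 mM NaCl on days 13 and 14 alone. The no salt group (4 arrays) was given tap water. Plants were 4 to 5 weeks old at the start. All were harvested on day 15, at 6 to 7 weeks of age and after 4 h of light, so the last salt round of 3x salt and the single round of 1x salt had the same strength and the same days. The labels do not say how the enrichment was done or whether the arrays of a group came from separate plants, so each p-value measures only how far these samples spread, and that spread may be technical.

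Water enters and leaves guard cells through plasma membrane channels, chiefly PIPs, and is exchanged with the large vacuole through TIPs, while the cells swell or shrink. PIP2 proteins are strong water channels on their own, and PIP1 proteins generally reach the plasma membrane in tetramers with PIP2 proteins. Aquaporins are regulated by transcript level, phosphorylation, trafficking and breakdown, and the arrays read transcript level only. In bulk samples of this kind, fewer cells of a type and less RNA per cell cannot be told apart.

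Values are log2 signals relative to the 75th percentile of the array, so that 0 stands for a spot as bright as that percentile, a difference of 1 is a doubling, and levels of different probes are not compared. Of the spots on an array, 66.24% to 80.25% were well above background, and the highest share was on 1x salt array 3, which also held the most outlier spots, 442, where each other array held 9 to 38. All 13 guard cell identity genes looked up passed the same brightness filter, but so did all 18 mesophyll photosynthesis genes and all 14 xylem and phloem genes, and 5 of 7 pavement cell and trichome genes (not GL1 and GL3). Some arrays of a group lay close together. As a robust SD of log2 differences over all genes, 3x salt arrays 1 and 2 were 0.175 apart and arrays 3 and 4 were 0.17 apart. The 1x salt arrays were 0.231 to 0.406 apart, and no salt arrays 2, 3 and 4 were 0.142 to 0.155 apart. The labels do not say that close arrays share plants. Counts below are therefore also given with such arrays averaged to 1 sample, which leaves 2 samples in 3x salt, 3 in 1x salt and 2 in no salt.

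After 1 round of salt, the aquaporin transcripts that were called changed mostly upward, and 18 of the 27 tested members were not called. Against no salt, 8 of the 27 tested members rose in 1x salt and 1 fell (limma, Benjamini-Hochberg adjusted p below 0.05), while 9.21% of all genes tested rose and 7.68% fell. The tonoplast channel TIP2;1 had the largest difference of the family, 6.11-fold higher. The others that rose were 4 PIPs, 2 more TIPs and 1 NIP, and the one that fell was an SIP. The median of the 27 differences was 0.26, beside 0.04 over all genes. By subfamily it was 0.42 (PIP), 0.50 (TIP), -0.33 (NIP) and -0.31 (SIP), so the NIPs and SIPs did not share the upward median. With the close arrays averaged, 1 member rose (TIP2;1) and 0 fell, as 70 genes rose and 32 fell in all. With the slide as a block, since groups share slides, 5 rose and 0 fell, as 566 genes rose and 422 fell in all. The 5 were PIP1;3, PIP2;5, TIP1;2, TIP2;1 and PIP2;3, which was not called without the block (adjusted p = 0.0488 with it).

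After 3 rounds the family lay lower. Against no salt, 14 of the 27 members fell in 3x salt and 1 rose, while 23.6% of all genes fell and 27.9% rose. The members that fell were 6 PIPs, 3 TIPs, 2 NIPs and all 3 SIPs, and PIP2;5 was the one that rose. The median was -0.53, beside 0.04 over all genes. With the close arrays averaged, 5 members fell (3 PIPs, 1 NIP and 1 SIP) and 0 rose, as 1685 genes fell and 1905 rose in all. With the slide as a block, 14 fell and 0 rose, as 3760 genes fell and 4212 rose in all. These 14 are not the same set: SIP2;1 was lost (adjusted p = 0.0862) and NIP5;1 was new (adjusted p = 0.0352).

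Set directly against 1x salt, 17 of the 27 members fell in 3x salt and 0 rose, while 19% of all genes fell and 19.8% rose. In limma at an unadjusted p below 0.05 the count of rises was 0, and fitted on the authors' deposited table it was 1 (PIP1;4). The 17 were 10 PIPs, 4 TIPs, 2 NIPs and 1 SIP. The median was -0.93, beside 0.01 over all genes. With the close arrays averaged 10 members fell, as 1657 genes did in all, and with the slide as a block 9 fell, as 1605 genes did. Of the 8 members that rose in 1x salt, 7 fell in 3x salt relative to 1x salt and 1 (TIP1;2) fell in 3x salt relative to no salt. The 7 falls reuse the 1x salt arrays on which the 8 were picked as high, so that count is favoured in advance. The matching share among all genes that rose was not counted. Of the 41 calls in the 3 comparisons, 13 were kept under every other fit tried. They were those of PIP1;1, PIP2;1 and PIP2;8 in 3x salt against both other groups, of PIP1;3, PIP2;2 and TIP1;2 in 3x salt against 1x salt, of TIP2;1 in 1x salt against no salt and in 3x salt against 1x salt, and of NIP1;2 and SIP1;2 in 3x salt against no salt. The comparisons share their arrays, so the counts are not separate pieces of evidence. The heat map of signal relative to no salt shows every tested member on every array.

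**Figure D1:**
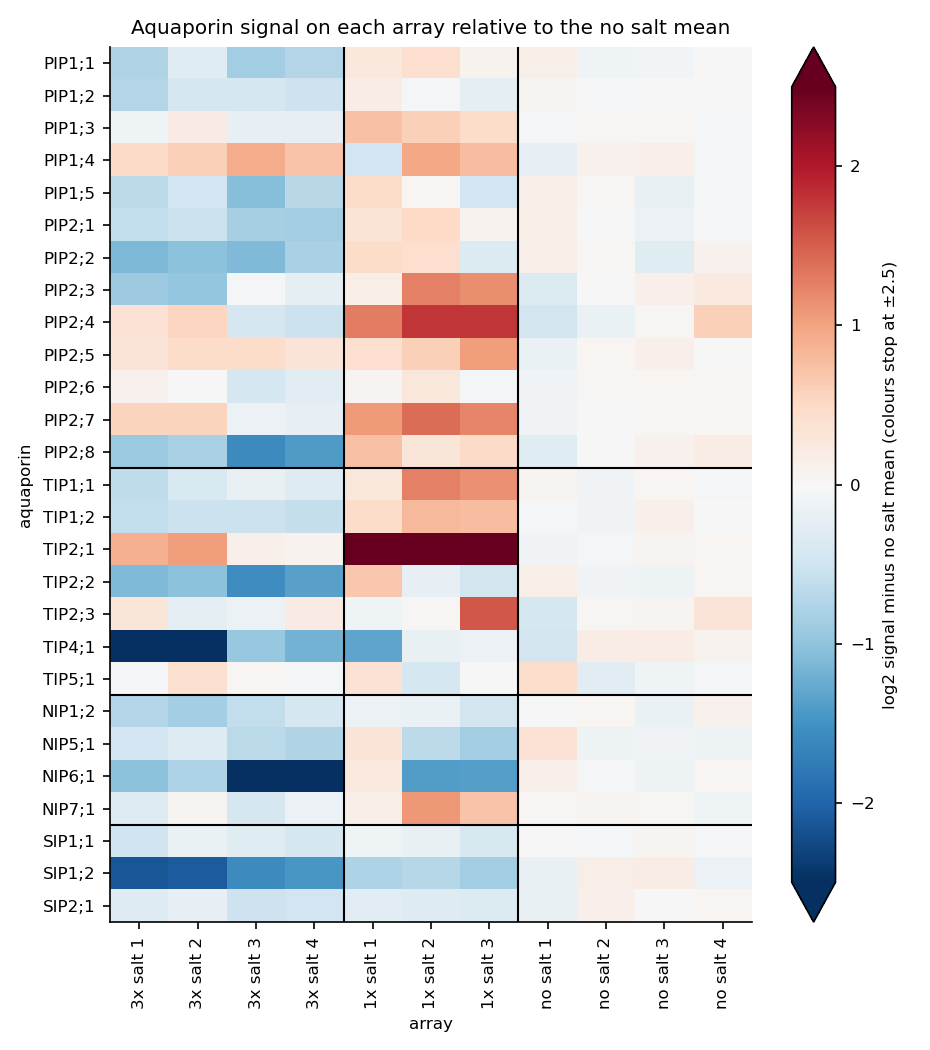
Heat map of the 27 tested aquaporins (rows, by subfamily) on the 11 arrays (columns, 3x salt, 1x salt and no salt from left to right), with colour for the log2 signal minus the mean of the 4 no salt arrays. TIP2;1 is darkest red in 1x salt, and the 3x salt columns are blue for most PIP, NIP and SIP rows.

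**Figure D2:**
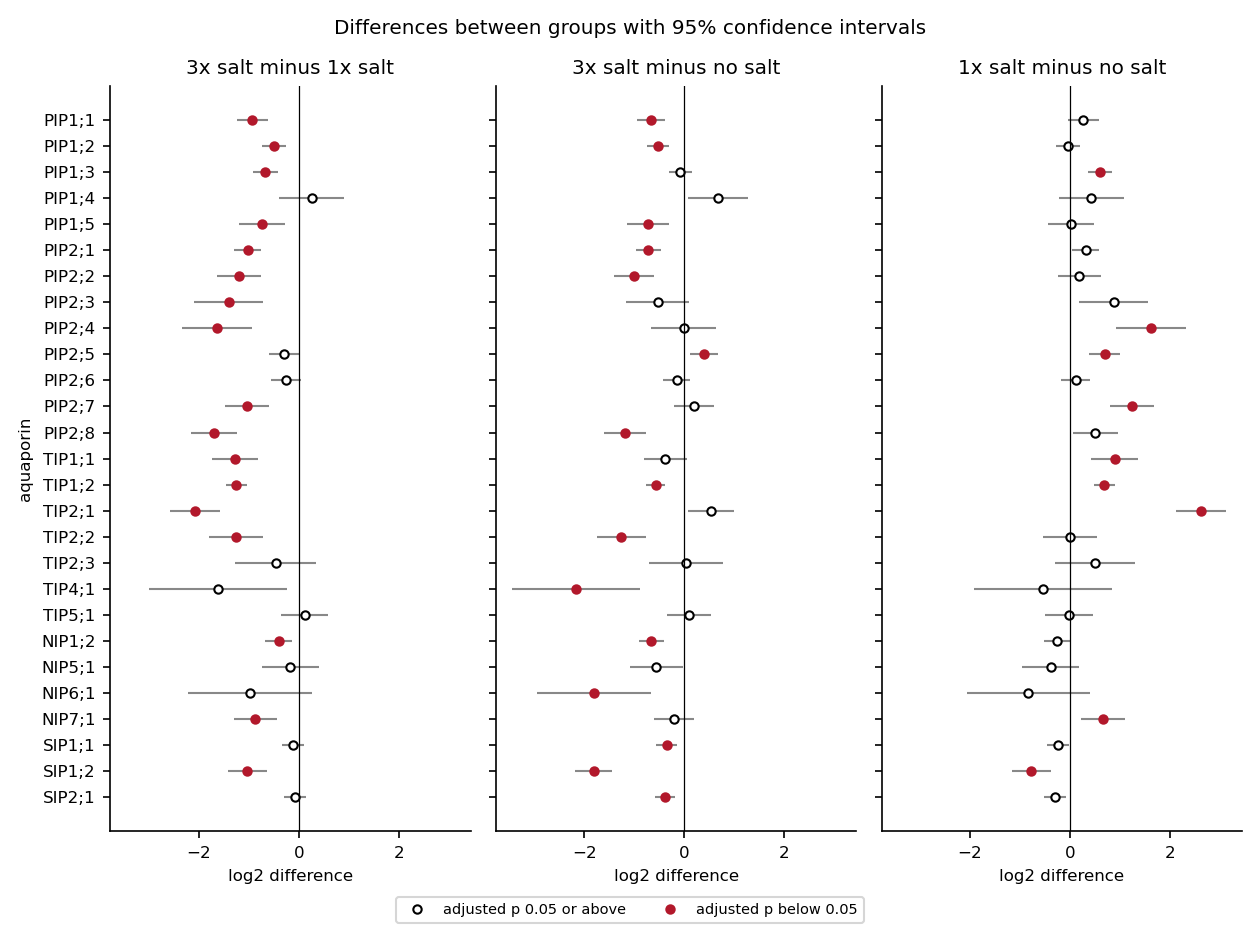
Log2 difference of each tested aquaporin (points) with its 95% confidence interval (lines) for 3x salt minus 1x salt, 3x salt minus no salt and 1x salt minus no salt, where filled points have an adjusted p below 0.05. Filled points lie left of 0 in the first panel for all 17 members called, and mostly right of 0 in the last.

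Among the PIPs, in 1x salt 4 of 13 rose and 0 fell against no salt (median 0.42), in 3x salt 1 rose and 6 fell against no salt (median -0.53), and 10 fell in 3x salt against 1x salt (median -0.93). The shares over all genes were 9.21% up and 7.68% down in 1x salt against no salt. They were 27.9% up and 23.6% down in 3x salt against no salt, and 19% down against 1x salt. Within the PIP1 class, whose members form mixed tetramers with PIP2 proteins, PIP1;1 (AT3G61430) gave 2.40, 2.85, 2.27 and 2.42 in 3x salt, 3.41, 3.58 and 3.25 in 1x salt and 3.31, 3.04, 3.09 and 3.16 in no salt. Every 3x salt array lay below every other array. It fell by 0.67 (SE 0.13, adjusted p = 0.00187) against no salt and fell by 0.93 (SE 0.14, adjusted p = 0.000836) against 1x salt, and the 1x salt difference from no salt was 0.26 (adjusted p = 0.234). PIP1;2 (AT2G45960) gave 2.97, 3.25, 3.25 and 3.18 in 3x salt, 3.87, 3.65 and 3.45 in 1x salt and 3.77, 3.64, 3.68 and 3.69 in no salt. It too was lowest on the 3x salt arrays, with 1x salt and no salt overlapping. It fell by 0.53 (SE 0.10, adjusted p = 0.00162) against no salt and fell by 0.49 (SE 0.11, adjusted p = 0.0057) against 1x salt. The second difference was -0.25 in a fit of the authors' deposited table (adjusted p = 0.221), and that call was also lost with the slide as a block (adjusted p = 0.055). With close arrays averaged neither was called (adjusted p = 0.0687 and 0.0813).

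PIP1;3 (AT1G01620) had another pattern. Its signals were 4.15, 4.45, 4.05 and 4.04 in 3x salt, 4.97, 4.85 and 4.70 in 1x salt and 4.22, 4.31, 4.28 and 4.19 in no salt. The 1x salt arrays stood above all others, and 3x salt overlapped with no salt. It rose by 0.59 (SE 0.11, adjusted p = 0.00646) in 1x salt against no salt and fell by 0.67 (SE 0.11, adjusted p = 0.00128) in 3x salt against 1x salt, with 3x salt and no salt differing by -0.08 (adjusted p = 0.558). The rise was lost with close arrays averaged (adjusted p = 0.102). For PIP1;5 (AT4G23400) the signals were 2.06, 2.25, 1.66 and 2.03 in 3x salt, 3.18, 2.77 and 2.25 in 1x salt and 2.89, 2.75, 2.55 and 2.70 in no salt. Low 3x salt arrays were again clear of no salt, and 1x salt array 3 was level with 3x salt array 2. It fell by 0.72 (SE 0.19, adjusted p = 0.00987) in 3x salt against no salt and fell by 0.73 (SE 0.21, adjusted p = 0.0183) against 1x salt. Without 1x salt array 1 the second difference was -0.51 (adjusted p = 0.0646), and with the slide as a block that call was lost (adjusted p = 0.0525). Averaging close arrays ended both calls (adjusted p = 0.129 and 0.134).

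PIP1;4 (AT4G00430), which in Arabidopsis is known to carry hydrogen peroxide into cells in immune signalling, was the PIP1 member with no call and the one that lay highest in 3x salt. The brightest probe gave 2.41, 2.53, 2.86 and 2.65 in 3x salt, 1.45, 2.89 and 2.71 in 1x salt and 1.73, 2.04, 2.05 and 1.91 in no salt. All 4 3x salt arrays exceeded all no salt arrays, while 1x salt array 1 lay below no salt and arrays 2 and 3 above it. The 3x salt difference from no salt was 0.68 (adjusted p = 0.0584) and the 1x salt difference 0.42 (adjusted p = 0.366). Its 5 probes did not give the same size. On 4 probes that carry one RefSeq transcript name, 3x salt exceeded no salt by 0.31 to 0.95 and differed from 1x salt by -0.12 to 0.26. On the one probe that carries another transcript name of the same locus, 3x salt exceeded no salt by 2.84 and 1x salt by 1.85. That probe gave 0.39, 0.37, 1.33 and 1.23 in 3x salt, -2.67, -0.02 and -0.36 in 1x salt and -2.28, -1.96, -1.87 and -1.94 in no salt, with every 3x salt array above every other. In the authors' deposited table, the gene stood at 11.21, 11.24, 12.11 and 11.83 in 3x salt, 8.44, 10.82 and 10.30 in 1x salt and 8.67, 9.09, 8.86 and 8.70 in no salt, on a log2 scale of its own. Fitted with limma, that table put it 2.77 above no salt in 3x salt (adjusted p = 0.000631) and 1.74 above 1x salt (adjusted p = 0.019). Whether the probes read different transcript forms was not tested.

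Of the 8 PIP2 members, the water channels of the plasma membrane, 3 rose and 0 fell in 1x salt against no salt (median 0.60), and 3 fell and 1 rose in 3x salt against no salt (median -0.34). Among all genes, 9.21% rose and 7.68% fell in the first comparison, and 23.6% fell and 27.9% rose in the second. With 8 genes the 3x salt counts are not set apart from these shares. PIP2;1 (AT3G53420), which in Arabidopsis is a target of the kinase OST1 in abscisic-acid-triggered stomatal closure, gave 4.52, 4.61, 4.30 and 4.26 in 3x salt, 5.48, 5.64 and 5.22 in 1x salt and 5.28, 5.15, 5.00 and 5.12 in no salt. The 3x salt arrays were the 4 lowest, and 1x salt overlapped with no salt. It fell by 0.72 (SE 0.11, adjusted p = 0.000633) against no salt and fell by 1.02 (SE 0.12, adjusted p = 0.000304) against 1x salt. PIP2;8 (AT2G16850) gave -3.94, -3.83, -4.61 and -4.43 in 3x salt, -2.28, -2.71 and -2.54 in 1x salt and -3.32, -3.00, -2.89 and -2.83 in no salt. The 3 groups did not overlap, with 1x salt highest and 3x salt lowest. It fell by 1.19 (SE 0.19, adjusted p = 0.000596) in 3x salt against no salt and fell by 1.69 (SE 0.20, adjusted p = 0.000301) against 1x salt, while the 1x salt difference from no salt was 0.50 (adjusted p = 0.122).

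PIP2;2 (AT2G37170) and PIP2;3 (AT2G37180) are neighbouring genes on chromosome 2 with closely related sequences, each read by 1 probe, and cross-hybridisation between them was not tested. PIP2;2 gave -0.19, -0.09, -0.17 and 0.13 in 3x salt, 1.39, 1.36 and 0.58 in 1x salt and 1.09, 0.95, 0.64 and 1.04 in no salt. Its 3x salt arrays were clear of both other groups. It fell by 1.01 (SE 0.18, adjusted p = 0.00122, or 0.059 with close arrays averaged) against no salt and fell by 1.19 (SE 0.20, adjusted p = 0.00128) against 1x salt. PIP2;3 gave -2.61, -2.67, -1.77 and -1.94 in 3x salt, -1.54, -0.46 and -0.54 in 1x salt and -2.08, -1.72, -1.58 and -1.46 in no salt. Here 3x salt arrays 3 and 4 reached into the no salt range, and 1x salt array 1 lay within no salt while arrays 2 and 3 lay above it. It fell by 1.40 (SE 0.31, adjusted p = 0.0058, or 0.0766 with close arrays averaged) in 3x salt against 1x salt, and its other differences were 0.87 (adjusted p = 0.083) for 1x salt and -0.53 (adjusted p = 0.143) for 3x salt, each against no salt. The gap between the genes (the second minus the first) did not differ between groups beyond the spread: 0.68 for 1x salt minus no salt, 0.48 for 3x salt minus no salt and -0.21 for 3x salt minus 1x salt, with exact two-sided permutation p = 0.257, 0.171 and 0.743. The smallest possible value is 0.0286 in each comparison.

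PIP2;7 (AT4G35100), a plasma membrane water channel whose delivery depends on the syntaxin SYP121 in Arabidopsis, gave 3.94, 3.96, 3.24 and 3.19 in 3x salt, 4.45, 4.80 and 4.61 in 1x salt and 3.31, 3.40, 3.42 and 3.44 in no salt. All 1x salt arrays exceeded all others. The 3x salt arrays fell in 2 pairs, 1 and 2 above no salt and 3 and 4 just below it. It rose by 1.23 (SE 0.20, adjusted p = 0.00325) in 1x salt against no salt, 2.34-fold, and fell by 1.04 (SE 0.20, adjusted p = 0.00269) in 3x salt against 1x salt, with 0.19 (adjusted p = 0.407) between 3x salt and no salt. Neither call was kept with the slide as a block (adjusted p = 0.0514 and 0.0887), and the rise was lost with close arrays averaged (adjusted p = 0.0784).

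PIP2;4 (AT5G60660), known chiefly from roots, was dim: the probe was above background on 4 of 4 3x salt arrays, 3 of 3 1x salt arrays and 1 of 4 no salt arrays. It gave -5.51, -5.35, -6.30 and -6.42 in 3x salt, -4.60, -4.09 and -4.10 in 1x salt and -6.34, -6.04, -5.85 and -5.30 in no salt. The 1x salt arrays were the 3 brightest. It rose by 1.62 (SE 0.31, adjusted p = 0.008) in 1x salt against no salt and fell by 1.63 (SE 0.31, adjusted p = 0.00292) in 3x salt against 1x salt. With 3 of the 4 no salt arrays not above background, the size of the rise is uncertain. It was 0.89 under normexp without the spots of extreme local background, 1.19 in a fit of the authors' deposited table and 0.22 (adjusted p = 0.857) under normexp as planned. Both calls were lost with the slide as a block (adjusted p = 0.0833 and 0.098), and the rise with close arrays averaged (adjusted p = 0.0828). PIP2;5 (AT3G54820) gave -4.35, -4.20, -4.21 and -4.34 in 3x salt, -4.25, -4.07 and -3.62 in 1x salt and -4.83, -4.63, -4.54 and -4.67 in no salt. Both salt groups lay above no salt on every array and overlapped with each other. It rose by 0.69 (SE 0.14, adjusted p = 0.00897) in 1x salt and rose by 0.39 (SE 0.13, adjusted p = 0.0265) in 3x salt, each against no salt. The 3x salt call was lost when any of 4 arrays was left out (highest adjusted p 0.0695), and under normexp background correction the difference was 0.16 (adjusted p = 0.153), or -0.35 where 1 array's correction had failed. It was lost with the slide as a block too (adjusted p = 0.0547), and with close arrays averaged neither was called (adjusted p = 0.14 in 1x salt and 0.203 in 3x salt). PIP2;6 (AT2G39010) was not called: its brightest probe lay between 4.83 and 5.56 on all 11 arrays, with differences of -0.15 (adjusted p = 0.323) for 3x salt and 0.11 (adjusted p = 0.643) for 1x salt against no salt. Over its 5 probes the 3x salt difference from no salt ranged from -0.63 to -0.15, smallest on the brightest. A fit of the authors' deposited table called it lower in 3x salt than in no salt, by 0.55 (limma adjusted p = 0.00928).

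**Figure D3:**
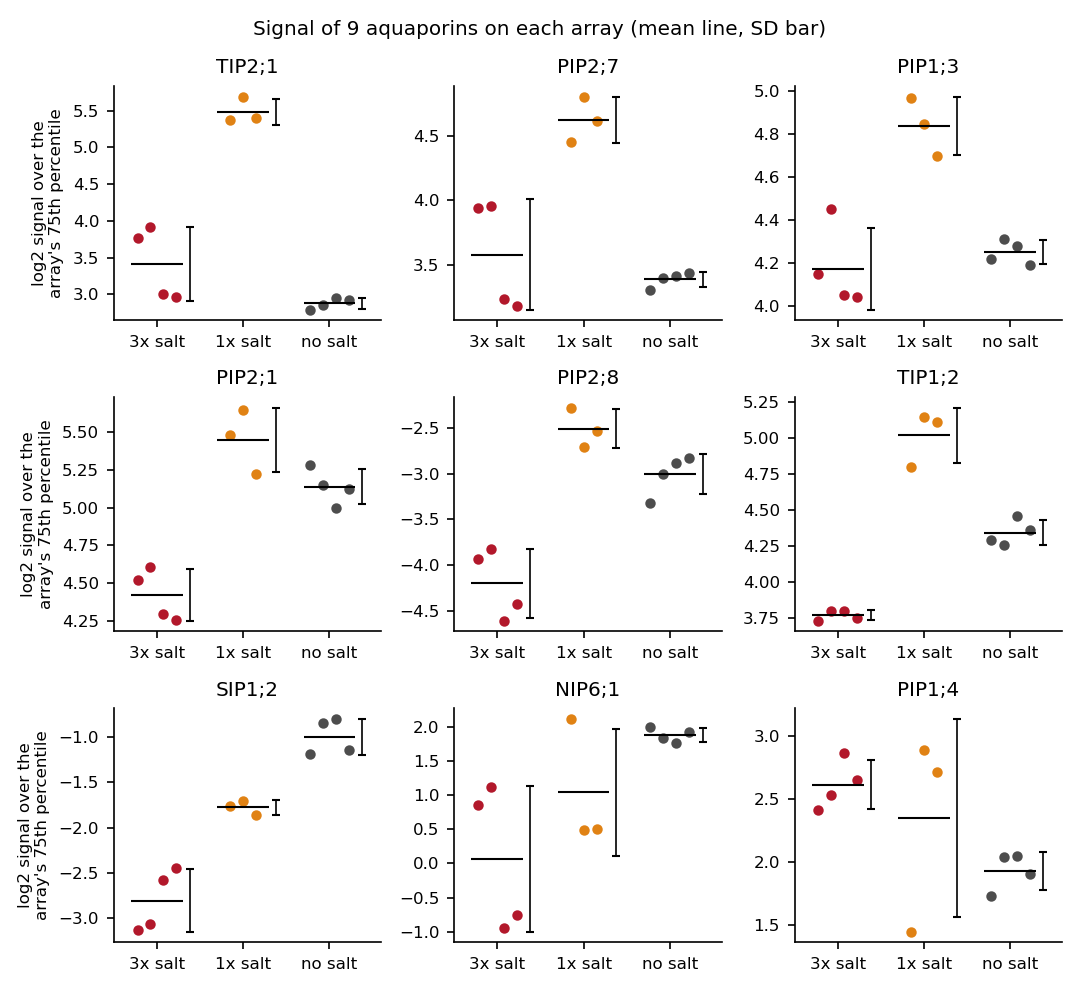
Log2 signal relative to the array's 75th percentile for 9 aquaporins, each on its own vertical scale, with 1 point per array (3x salt, 1x salt and no salt from left to right), the mean as a line and the SD as a bar (n = 4, 3 and 4). TIP2;1, PIP2;7 and PIP1;3 peak in 1x salt, PIP2;1, PIP2;8 and TIP1;2 are lowest in 3x salt, SIP1;2 is lower in each salt group, NIP6;1 is split within both salt groups, and PIP1;4 is highest on average in 3x salt.

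Among the TIPs of the vacuolar membrane, 3 of 7 rose and 0 fell in 1x salt against no salt (median 0.50), 3 fell and 0 rose in 3x salt against no salt (1 higher at an unadjusted p below 0.05, median -0.38), and 4 fell in 3x salt against 1x salt (median -1.25). All genes had 9.21% up and 7.68% down in the first comparison, 23.6% down and 27.9% up in the second and 19% down in the third. TIP2;1 (AT3G16240), which can also carry ammonia, gave 3.77, 3.91, 3.00 and 2.96 in 3x salt, 5.37, 5.69 and 5.40 in 1x salt and 2.79, 2.85, 2.95 and 2.92 in no salt. The 1x salt arrays lay far above the rest, and all 3x salt arrays lay above no salt, arrays 3 and 4 only just. It rose by 2.61 (SE 0.23, adjusted p = 0.000212) in 1x salt against no salt and fell by 2.08 (SE 0.23, adjusted p = 0.000193) in 3x salt against 1x salt, a 4.22-fold lower level. Between 3x salt and no salt the difference was 0.53 (adjusted p = 0.0552). On the slides that held both groups, the 1x salt array exceeded the no salt array by 2.58, 2.84 and 2.45. The call in 1x salt was kept under every refit in the closing section.

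TIP1;1 (AT2G36830) and TIP1;2 (AT3G26520), the main vacuolar channels of vegetative tissue, both rose in 1x salt. TIP1;1 gave 2.36, 2.61, 2.82 and 2.69 in 3x salt, 3.28, 4.26 and 4.14 in 1x salt and 3.07, 2.92, 3.05 and 2.96 in no salt. Array 1 of 1x salt stayed near no salt and arrays 2 and 3 lay well above it, and 3x salt was lowest. It rose by 0.89 (SE 0.21, adjusted p = 0.0179) in 1x salt against no salt and fell by 1.27 (SE 0.21, adjusted p = 0.00131) in 3x salt against 1x salt, with -0.38 (adjusted p = 0.125) between 3x salt and no salt. The rise was not past the threshold without 1x salt array 2 or array 3 (highest adjusted p 0.0732). With the slide as a block the adjusted p was 0.094 for the rise and 0.0664 for the fall, and with close arrays averaged 0.212 and 0.0502. TIP1;2 gave 3.73, 3.80, 3.80 and 3.75 in 3x salt, 4.80, 5.15 and 5.11 in 1x salt and 4.29, 4.26, 4.46 and 4.36 in no salt. Its 3 groups were fully apart, in the order 1x salt, no salt, 3x salt from high to low. It rose by 0.68 (SE 0.09, adjusted p = 0.00164) in 1x salt against no salt, fell by 0.57 (SE 0.09, adjusted p = 0.000466) in 3x salt against no salt and fell by 1.25 (SE 0.09, adjusted p = 3.96e-05) in 3x salt against 1x salt. A fit of the authors' deposited table put its 1x salt difference at 0.46 (adjusted p = 0.063). Its differences from no salt were not called with close arrays averaged (adjusted p = 0.085 in 1x salt and 0.0569 in 3x salt).

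TIP2;2 (AT4G17340) is of the same TIP2 group, but rose in neither salt group. It gave 2.43, 2.51, 1.99 and 2.18 in 3x salt, 4.20, 3.32 and 3.07 in 1x salt and 3.69, 3.45, 3.41 and 3.58 in no salt. The 3x salt arrays were lowest, and 1x salt array 1 stood above no salt while arrays 2 and 3 stood below. It fell by 1.26 (SE 0.22, adjusted p = 0.00111) in 3x salt against no salt and fell by 1.25 (SE 0.24, adjusted p = 0.00279) against 1x salt, and 1x salt differed from no salt by 0.00 (adjusted p = 0.996). Both falls were lost with close arrays averaged (adjusted p = 0.0673 and 0.0672). TIP4;1 (AT2G25810), which carries urea as well as water in yeast assays, was above background on 2 of 4 3x salt arrays, 2 of 3 1x salt arrays and 4 of 4 no salt arrays. It gave -8.19, -7.25, -5.40 and -5.63 in 3x salt, -5.79, -4.65 and -4.60 in 1x salt and -4.92, -4.28, -4.27 and -4.37 in no salt. All 3x salt arrays lay below all no salt arrays. It fell by 2.16 (SE 0.57, adjusted p = 0.0103) in 3x salt against no salt. The size is uncertain, since 2 of the 3x salt arrays were not above background. It was -0.94 under normexp without the spots of extreme local background, -1.42 under normexp as planned and -1.29 in a fit of the authors' deposited table, and the call was lost with close arrays averaged (adjusted p = 0.123). TIP2;3 (AT5G47450) and TIP5;1 (AT3G47440), a pollen aquaporin in Arabidopsis, were not called. TIP2;3 was above background on 4 of the 11 arrays and ranged from -6.61 to -4.62, and TIP5;1 ranged from -4.17 to -3.31.

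The NIPs mostly carry small uncharged solutes rather than water, and only 4 of the 9 could be tested. In 1x salt 1 rose against no salt (median -0.33). In 3x salt 2 fell against no salt (median -0.61) and 2 fell against 1x salt (median -0.63). With 4 genes these counts are not set apart from all genes, of which 9.21% rose, 23.6% fell and 19% fell in the same comparisons. NIP6;1 (AT1G80760), a boric acid channel of stem nodes and young leaves in Arabidopsis, gave 0.86, 1.12, -0.94 and -0.76 in 3x salt, 2.12, 0.49 and 0.51 in 1x salt and 2.00, 1.83, 1.76 and 1.92 in no salt. The no salt arrays were tight, but both salt groups were split: 3x salt arrays 1 and 2 lay well above arrays 3 and 4, and 1x salt array 1 lay above no salt while arrays 2 and 3 lay far below it. It fell by 1.81 (SE 0.51, adjusted p = 0.0141) in 3x salt against no salt, and the other differences were -0.84 (adjusted p = 0.339) for 1x salt against no salt and -0.97 (adjusted p = 0.193) for 3x salt against 1x salt. The fall was not called with close arrays averaged (adjusted p = 0.142). NIP5;1 (AT4G10380), the boric acid channel of root uptake, was not called, with -0.56 (adjusted p = 0.072) for 3x salt and -0.39 (adjusted p = 0.331) for 1x salt against no salt. Its 3x salt arrays all lay below no salt. The 3x salt difference was called with the slide as a block (adjusted p = 0.0352) and with only the groups compared (adjusted p = 0.0104). It was not called under quantile normalization (adjusted p = 0.096) or in a fit of the authors' deposited table (adjusted p = 0.0879).

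NIP1;2 (AT4G18910), known in Arabidopsis for carrying aluminium bound to malate, gave -0.63, -0.76, -0.52 and -0.33 in 3x salt, -0.05, -0.06 and -0.36 in 1x salt and 0.11, 0.15, -0.06 and 0.21 in no salt. The 3x salt arrays were clear of no salt, and 3x salt array 4 lay within the 1x salt range. It fell by 0.66 (SE 0.11, adjusted p = 0.000903) in 3x salt against no salt and fell by 0.40 (SE 0.12, adjusted p = 0.0253) against 1x salt. The second call was lost in 4 of the 11 fits with 1 array left out (highest adjusted p 0.0824), with the slide as a block (adjusted p = 0.0647) and with close arrays averaged (adjusted p = 0.126). NIP7;1 (AT3G06100), a boric acid channel of the anther tapetum, gave -4.47, -4.08, -4.56 and -4.29 in 3x salt, -3.98, -3.05 and -3.42 in 1x salt and -4.12, -4.07, -4.11 and -4.25 in no salt. The 1x salt arrays were the 3 highest, with array 1 close to no salt. It rose by 0.65 (SE 0.19, adjusted p = 0.0447) in 1x salt against no salt and fell by 0.87 (SE 0.19, adjusted p = 0.00629) in 3x salt against 1x salt. The rise in 1x salt was lost in 9 of the 11 fits with 1 array left out (highest adjusted p 0.144), and a fit of the authors' deposited table gave 0.50 (adjusted p = 0.167). The slide block ended both calls (adjusted p = 0.112 and 0.115), and so did averaging close arrays (adjusted p = 0.266 and 0.0849).

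The SIPs, channels of the endoplasmic reticulum, had no member that rose, with 0 higher also at an unadjusted p below 0.05 in limma. All 3 fell in 3x salt against no salt (median -0.38). In 1x salt 1 fell against no salt (median -0.31), and at an unadjusted p below 0.05 in limma all 3 were lower. Among all genes, 23.6% fell and 27.9% rose in the first of these comparisons, and 7.68% fell and 9.21% rose in the second. SIP1;2 (AT5G18290) gave -3.13, -3.06, -2.58 and -2.44 in 3x salt, -1.76, -1.70 and -1.86 in 1x salt and -1.19, -0.85, -0.80 and -1.14 in no salt. The 3 groups were fully apart, with no salt highest and 3x salt lowest. It fell by 0.78 (SE 0.18, adjusted p = 0.0153) in 1x salt against no salt, fell by 1.81 (SE 0.16, adjusted p = 3.02e-05) in 3x salt against no salt and fell by 1.03 (SE 0.18, adjusted p = 0.00163) in 3x salt against 1x salt, the one member that fell in all 3 comparisons. The 1x salt call was lost without 1x salt array 3 (-0.74, adjusted p = 0.0579), with the slide as a block (adjusted p = 0.0872) and with close arrays averaged (adjusted p = 0.14). The slide block also ended the call against 1x salt (adjusted p = 0.0691).

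The falls of the other SIPs were small. SIP1;1 (AT3G04090) gave 0.69, 1.01, 0.88 and 0.74 in 3x salt, 1.07, 1.00 and 0.77 in 1x salt and 1.2, 1.14, 1.26 and 1.13 in no salt. Each salt group lay below every no salt array, and the salt groups overlapped. It fell by 0.35 (SE 0.09, adjusted p = 0.00954) in 3x salt against no salt, and its 1x salt difference was -0.24 (adjusted p = 0.133). With close arrays averaged the fall was not called (adjusted p = 0.115). SIP2;1 (AT3G56950) gave 0.19, 0.32, 0.01 and 0.03 in 3x salt, 0.23, 0.20 and 0.18 in 1x salt and 0.33, 0.65, 0.53 and 0.56 in no salt. Here too both salt groups lay below no salt. It fell by 0.38 (SE 0.09, adjusted p = 0.0062) in 3x salt against no salt, with -0.31 (adjusted p = 0.0568) in 1x salt. The fall was not called with the slide as a block (adjusted p = 0.0862) or with close arrays averaged (adjusted p = 0.162).

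The 8 members that were too dim to test include several that are known in Arabidopsis from other organs. They were TIP3;1 and TIP3;2, channels of seed vacuoles, TIP1;3 and the neighbouring genes NIP4;1 and NIP4;2, channels of pollen, NIP2;1, a lactic acid channel of roots short of oxygen, and NIP3;1 and NIP1;1. The last was well above background on 2 of the 11 arrays, 1 of 3x salt and 1 of no salt, and the other 7 on none.

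Signals on further probes bear on how far the brightest probe stands for its gene. Of the 80 probes of the family, 70 were above background on at least 3 arrays, and 13 members had several such probes. All probes had the same sign in each of the 5, 7 and 10 calls made on members with several probes, for 1x salt against no salt, 3x salt against no salt and 3x salt against 1x salt in that order. The 5 TIP2;1 probes were all higher in 1x salt than in no salt, by 2.31 to 2.63. PIP2;7 had differences of 0.92 to 1.28 in 1x salt on 5 probes, and PIP2;1 of -1.13 to -0.69 in 3x salt against no salt on 6 probes. Sizes were less even for PIP1;3, with 0.59 on the brightest of 4 probes and up to 1.39 on another in 1x salt. For PIP2;6 the difference of 3x salt from no salt was -0.15 on the brightest of 5 probes and -0.63 on another. For PIP1;4 the spread over probes was widest, as described with that gene. The plot of differences by probe shows them all.

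**Figure D4:**
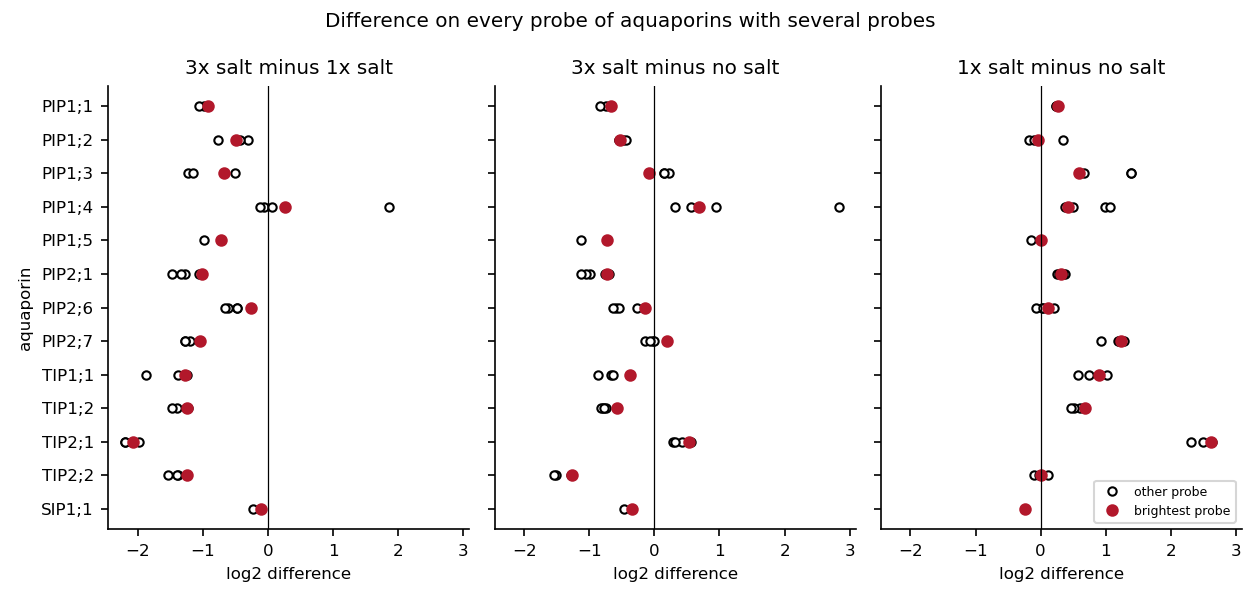
Log2 difference on every probe above background for the 13 aquaporins with several probes, for 3x salt minus 1x salt, 3x salt minus no salt and 1x salt minus no salt, where filled points are the brightest probe, used in the fits. The probes of most members cluster, and 1 PIP1;4 probe stands at 2.84 in the middle panel.

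Within groups, the arrays did not behave as one for every member. In 1x salt, array 1 lay near or beyond no salt for PIP1;4, TIP1;1, TIP2;2, NIP5;1 and NIP6;1, whereas TIP2;1, PIP2;7 and PIP1;3 were high on all 3 arrays. Over the family, the median deviation from no salt was 0.28, 0.30 and 0.08 on 1x salt arrays 1, 2 and 3. In 3x salt it was -0.62, -0.33, -0.44 and -0.49 on arrays 1 to 4, against -0.03 to 0.03 on the no salt arrays. Slides 1, 2 and 4 held 1x salt beside no salt arrays, and the median of the members' differences was 0.19, 0.29 and 0.16 there. Slides 1 and 6 held 3x salt beside no salt arrays, with medians of -0.56 and -0.53, and slide 1 held 3x salt beside 1x salt, with a median of -0.91. Slides 3 and 5 each held a single 3x salt array.

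Genes known to act on aquaporin proteins were looked up beside the family. Of 15 such genes, 14 were tested (VAMP721 has no probe matched here). In 1x salt against no salt 2 rose and 2 fell, in 3x salt against no salt 4 rose and 3 fell, and in 3x salt against 1x salt 2 rose and 4 fell. Over all genes 9.21% rose and 7.68% fell, 27.9% rose and 23.6% fell, and 19.8% rose and 19% fell in the same comparisons, so nothing is read from the counts of this list. TSPO (AT2G47770), a membrane protein that in Arabidopsis binds PIP2;7 and sends it to breakdown, rose by 2.83 in 1x salt (SE 0.57, adjusted p = 0.0096) and by 4.92 in 3x salt (SE 0.53, adjusted p = 7.22e-05), each against no salt. The 1x salt arrays of TSPO were split, at -0.91, 2.05 and 1.89, against -1.87, -1.71, -1.90 and -1.79 in no salt. SYP121 (AT3G11820), a syntaxin that delivers PIP2;7 and ion channels to the plasma membrane, fell by 0.64 in 1x salt (SE 0.19, adjusted p = 0.042) and by 0.99 in 3x salt (SE 0.17, adjusted p = 0.00104). BCA4 (AT1G70410), a carbonic anhydrase that interacts with PIP2;1, fell by 0.44 in 3x salt (SE 0.11, adjusted p = 0.00948) against no salt and by 0.83 (SE 0.12, adjusted p = 0.000785) against 1x salt. In 3x salt, where TSPO rose, PIP2;7 transcript differed from no salt by 0.19 (adjusted p = 0.407). Protein was not measured.

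Genes listed under several cell types moved in the same comparisons. Whether each listed gene is confined to the cell type its list is named after was not tested. Beside these lists, 9.21% of all genes rose and 7.68% fell in 1x salt against no salt. In 3x salt 27.9% rose and 23.6% fell against no salt, and 19.8% rose and 19% fell against 1x salt. The 14 xylem and phloem genes had 11 rises and 0 falls in 1x salt against no salt (median 0.91), 2 rises and 3 falls in 3x salt against no salt (median 0.08), and 0 rises and 10 falls in 3x salt against 1x salt (median -0.84). Their summed signal, in multiples of the array's 75th percentile, was 123 to 132 in 3x salt, 159 to 202 in 1x salt and 109 to 132 in no salt, without CESA4 on 1x salt array 3, where its spot was an outlier. The 3x salt arrays were split for this list, with median deviations from no salt of 0.36, 0.47, -0.16 and -0.05 on arrays 1 to 4. XCP1 (AT4G35350), a xylem protease, rose by 1.17 in 1x salt (SE 0.28, adjusted p = 0.0181) and fell by 1.53 in 3x salt (SE 0.26, adjusted p = 0.000801) against no salt. SEOR1 (AT3G01680), a sieve element protein, and PP2-A1 (AT4G19840), a phloem lectin, fell by 0.85 and 0.38 in 3x salt against no salt (adjusted p = 0.00162 and 0.0122). SEOR1 rose by 0.71 in 1x salt (adjusted p = 0.02). The 2 vascular genes that rose in 3x salt against no salt, named after their values were seen, were AHA3 (AT5G57350), a phloem proton pump, by 0.63 (adjusted p = 0.00135) and APL (AT1G79430), a phloem transcription factor, by 0.42 (adjusted p = 0.00228). The vascular genes lay higher on all 3 1x salt arrays, where 8 aquaporins rose. Their part in the aquaporin differences was not tested.

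The 18 mesophyll photosynthesis genes had 0 calls in 1x salt against no salt (limma, with 1 at an unadjusted p below 0.05, median 0.08) and 17 falls in 3x salt, both against no salt (median -0.85) and against 1x salt (median -0.88). Among all genes, 23.6% fell in 3x salt against no salt and 19% against 1x salt. The summed signal of the 18 genes was 1430 to 1650 in 3x salt, 2050 to 3340 in 1x salt and 2210 to 3050 in no salt. CA1 (AT3G01500), a chloroplast carbonic anhydrase, fell by 2.32 in 3x salt against no salt (SE 0.23, adjusted p = 4.8e-05). RBCS2B (AT5G38420) and RBCS3B (AT5G38410), small subunits of Rubisco with near-identical sequences that the probes may not separate, fell by 1.06 and 0.91 (adjusted p = 0.000292 and 0.000472). The mesophyll genes lay lower where 14 aquaporins fell. Their part in the aquaporin falls was not tested.

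Of the 13 guard cell identity genes, 2 rose and 1 fell in 1x salt against no salt (median 0.19), 1 rose and 6 fell in 3x salt against no salt (median -0.25), and 1 rose and 6 fell in 3x salt against 1x salt (median -0.44). Beside the shares of all genes in 1x salt, 9.21% up and 7.68% down, nothing is read from the 1x salt counts. In 3x salt the shares were 27.9% up and 23.6% down against no salt, and 19.8% up and 19% down against 1x salt. The summed signal of the 13 genes was 36.1 to 46.1 in 3x salt, 60 to 77.9 in 1x salt and 45.8 to 58 in no salt. KAT1 (AT5G46240), an inward potassium channel, fell by 0.94 in 3x salt (SE 0.12, adjusted p = 0.00016) and MYB60 (AT1G08810), a guard cell transcription factor, by 1.33 (SE 0.18, adjusted p = 0.000267), each against no salt. GORK (AT5G37500), the outward potassium channel, rose by 1.40 (SE 0.18, adjusted p = 0.000167). The 5 tested genes of the list named pavement cell and trichome had 2 rises and 0 falls in 1x salt against no salt (median 0.41). In 3x salt they had 1 rise and 3 falls against no salt (median -0.49), and 0 rises and 3 falls against 1x salt (median -0.44). Their summed signals were 17.5 to 21 in 3x salt, 20.7 to 22.8 in 1x salt and 18.8 to 19.7 in no salt. Of these genes, PDF1 (AT2G42840) rose by 1.16 in 1x salt against no salt (SE 0.24, adjusted p = 0.0102). It fell by 0.62 in 3x salt against no salt (SE 0.22, adjusted p = 0.0389) and by 1.78 against 1x salt (SE 0.24, adjusted p = 0.00048). FDH (AT2G26250) rose by 0.65 in 1x salt (SE 0.09, adjusted p = 0.00139) and by 0.67 in 3x salt (SE 0.08, adjusted p = 0.000122), each against no salt. PDF2 (AT4G04890) fell by 0.67 in 3x salt against no salt (SE 0.10, adjusted p = 0.000363). The part of these genes in the aquaporin differences was not tested. The plot of medians by array sets them beside the 4 subfamilies.

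**Figure D5:**
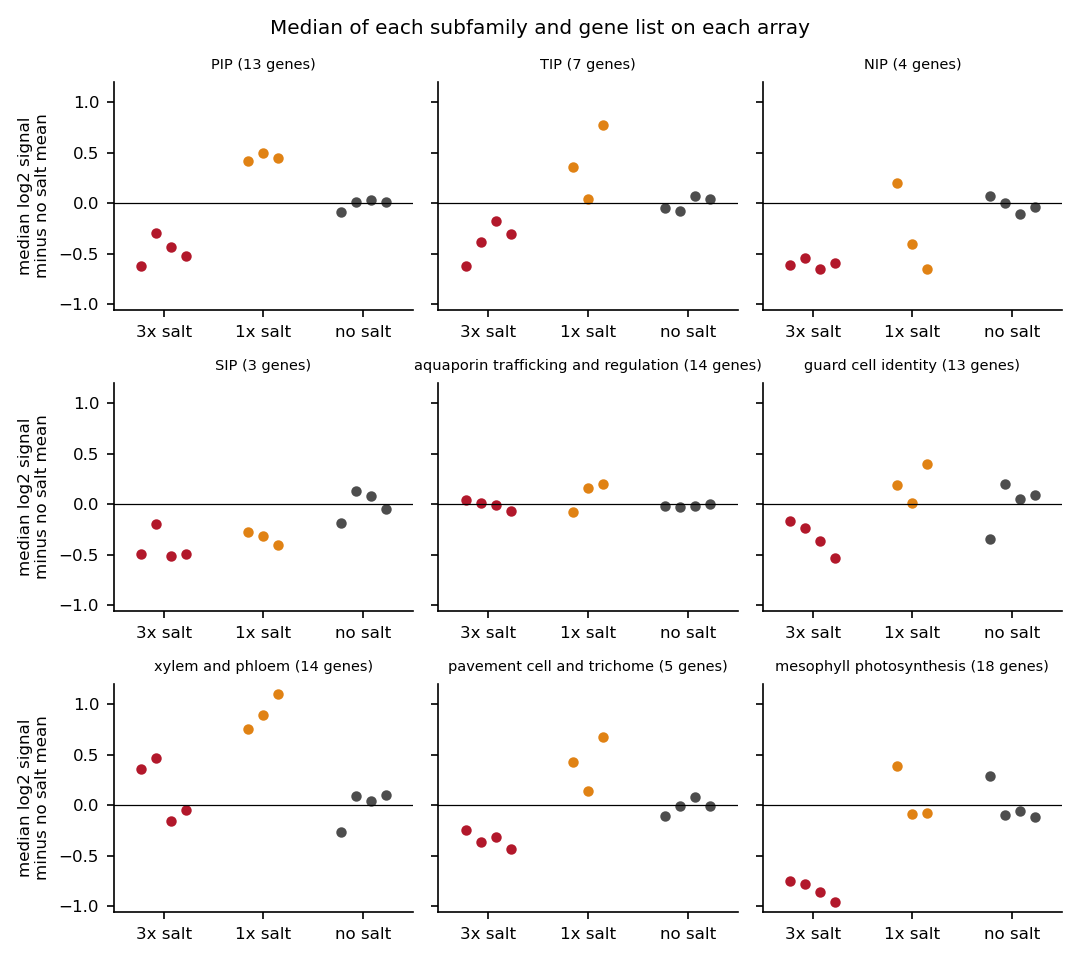
Median log2 signal minus the no salt mean over each aquaporin subfamily and each of 5 gene lists, with 1 point per array (3x salt, 1x salt and no salt from left to right). The PIP points are at 0.42 to 0.50 in 1x salt and -0.62 to -0.30 in 3x salt, the xylem and phloem points are highest in 1x salt, and the mesophyll points lowest in 3x salt.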

How the data were processed

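Transcript levels were measured with 1-colour Agilent arrays in 11 samples, grouped by the labels. The deposited scanner files, made with Agilent Feature Extraction 11.5.1.1, give a background-subtracted processed intensity per spot, per the file headers. Per the labels, the arrays carried Cy3-labelled cRNA. The authors' deposited table holds log2 values per locus. How it was normalized is not given in the sources used here. Its columns correlated best with their own array (r = 0.79 to 0.931 across genes, against 0.234 to 0.845 for the next).

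Here, log2 of the processed signal was set relative to its 75th percentile on each array, without control and outlier spots, with repeat spots averaged and the brightest probe standing for a gene. Probes were named through a RefSeq gene table of assembly TAIR10.1 (34348 of 43603 probes to 25410 loci). The headers name another release, so no coordinates are given, and no sequences were used here. Genes above background on at least 3 arrays were fitted in 1 model with limma 3.58.1 (R 4.3.3; 8 residual degrees of freedom), tested on simulated data, with a threshold of 0.05. Every adjusted p is limma's. Figures used matplotlib 3.10.9.

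The members, gene lists and tests were chosen with earlier results of these data known. Members with a call are given on every array, and up to 3 genes of each list by smallest adjusted p. The PIP1;4 probes and single members without a call were described after their values were seen. Alternatives were normexp (on median intensities in place of the planned mean intensities, offset 50), quantile normalization, filters, all probes, the deposited table, slide and replicate block, close arrays averaged, pairs of groups, and leaving out each array in turn. Precision is limited by how many arrays there are.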

Additional observations from a re-analysis of the deposited data

Results flagged for a closer look

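On no salt array 1, the signals of 3 members stood apart from the other 3 no salt arrays, measured as the gap to the nearest array over the range of the group. NIP5;1 was at -0.96, against -1.45 to -1.41 on the others (gap 0.918 of the range). PIP2;6 was at 5.18, against 5.29 to 5.31 (0.865), and TIP4;1 at -4.92, against -4.37 to -4.27 (0.849). Of 54 groups of 4 arrays, 3 went past Dixon's 95% limit, where chance takes about 1 in 20. The first 2 had no call in any comparison. The fall of TIP4;1 in 3x salt was past the threshold whichever array was left out.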

How the results depend on the processing

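Of 41 member calls, 13 held under every refit, 35 whichever array was left out and 40 under normexp without 6 spots of extreme local background, added after seeing the data. PIP2;5 in 3x salt against no salt was the exception. As planned, normexp went wrong on no salt array 2, where those spots reached a background of 26667 intensity units against a median of 27: its 5th percentile was -1.71, against -5.42 to -4.25 on the other arrays. PIP2;5 then turned to -0.35 in 3x salt, the rises numbered 4 in 1x salt and 0 in 3x salt against no salt, the 1x salt falls 0, and the medians were 0.23 (PIP) and 0.07 (TIP) in 1x salt and -0.71 (NIP) in 3x salt. Over all genes, 488 rose and 596 fell in 1x salt, 2985 and 3639 in 3x salt, and 1532 and 1994 in 3x salt against 1x salt, and the median of all genes was -0.16 in 3x salt against no salt, beside 0.04.

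With the slide as a block, 26 calls were kept. Counting new calls too, that fit had 5 rises (PIP2;3 new) and 0 falls in 1x salt, 0 rises and a new fall (NIP5;1) in 3x salt, and 9 falls against 1x salt. Medians were -0.39 (PIP) and -0.76 (NIP) in 3x salt and -0.25 (SIP) against 1x salt (all genes: 566 up and 422 down in 1x salt, 1178 and 1605 against 1x salt). With close arrays averaged, 16 were kept: 1 rise and 0 falls in 1x salt, 0 rises and 5 falls in 3x salt, and 10 falls against 1x salt (all genes: 70 and 32, 1905 and 1685, 1177 and 1657). Fewer samples enter that fit. In the deposited table, 37 were kept. Counting new calls too, it gave 5 rises in 1x salt, 2 in 3x salt and 1 against 1x salt, with PIP1;4 a new rise in both 3x salt comparisons. PIP2;6 was a new fall in 3x salt against no salt. Medians were 0 (TIP, 1x salt, reversed in sign before rounding) and -1.09 (PIP, against 1x salt). Over all genes 1215 rose and 1407 fell in 1x salt (46.3% of calls upward, against 54.5%) and 4004 rose and 2921 fell against 1x salt (57.8%, against 51.1%). In 3x salt against no salt, 5243 rose and 4100 fell.

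Rises in 3x salt against no salt numbered 3 under quantile normalization, 0 without a filter, 3 with a filter on all arrays, 2 with all probes, 2 with only the groups compared and 0 at a threshold of 0.01. Over all genes the rises numbered 7001, 5727, 6046, 6169 and 6852 in that order, and were not counted at 0.01. Of all genes tested, 34290 entered without a filter, 20453 with the filter on all arrays and 23458 otherwise. Falls in 1x salt numbered 2 with the filter on all arrays (1830 over all genes) and 0 at 0.01. Other medians that moved were -0.70 (PIP, against 1x salt) and 0.20 (TIP, 1x salt) under quantile normalization, 0.36 (PIP, 1x salt) with the filter on all arrays, 0.50 (PIP, 1x salt) and -0.63 (TIP, 3x salt) with all probes, and -0.17 (TIP, 3x salt) without a filter, where 1483 of all genes rose and 1196 fell in 1x salt. Quantile normalization put 61.8% of all calls between 3x salt and 1x salt upward, against 51.1%. Leaving out 1 array gave 0 to 2 falls in 1x salt and 0 to 2 rises in 3x salt. Over all genes, it gave 1205 to 3123 rises and 1072 to 2457 falls in 1x salt, and 5594 to 6896 rises in 3x salt against no salt.

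The replicate number as a replicate block kept all 41 calls, with 2 rises in 3x salt and 9 in 1x salt. Over all genes, that fit had 6787 rises in 3x salt and 1751 in 1x salt, each against no salt. Same-numbered arrays correlated at -0.12 to 0.302 in their deviations. Several of them share a slide, but not every correlation was over 0.1 and the labels do not say that a number marks a batch, so pairing was not assumed. The causes of these shifts were not tested. Differences below about 0.5 were rarely past the threshold, and TIP2;3, TIP4;1 and PIP2;4 were near background.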

Other observations

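Some differences that were not called passed the threshold under another setting. PIP1;4 was 0.87 higher in 1x salt than in no salt without 1x salt array 1 (limma adjusted p = 0.00264), and under the same setting NIP5;1 was at -0.75 in 1x salt against no salt (adjusted p = 0.0123). Taking the mean of all probes, PIP2;6 was at -0.44 in 3x salt against no salt (adjusted p = 0.00253) and -0.50 against 1x salt (adjusted p = 0.00309), and TIP1;1 at -0.63 in 3x salt against no salt (adjusted p = 0.0191). TIP2;1 was 0.63 higher in 3x salt than in no salt under quantile normalization (adjusted p = 0.0252). These were picked after all settings had been run.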
